A study of Homo sapiens with 24 samples.

Results

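Chromosome 18 is a small human autosome whose long (q) arm holds most of its genes. The genes examined here were chosen by position and level: 253 of the 43037 genes in the expression table lie on chromosome 18 of hg38 by their GENCODE 44 position, had a mean of at least 0.1 CPM (tag counts scaled to a common library total) over the 24 libraries, and were not SEC11C, EMILIN2, LAMA1, or LAMA3, 4 genes set aside by name. The table held 737 chromosome 18 genes, of which 480 fell below that mean. The mean CPM was thus a criterion of choice and is not a finding. Just outside the limit lay MYOM1 with a mean of 0.0983 CPM and MC5R with 0.092 CPM, and just inside lay ASXL3 with 0.105 CPM and AQP4-AS1 with 0.108 CPM.

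The study profiled 4 human glioblastoma cell lines by CAGE-Seq, which captures capped 5′ ends of RNA, sequences a short tag from each, and counts tags per gene. U87MG, T98G, U251MG, and DBTRG-05MG are established lines grown from such brain tumors. Each line was made into a “Vec” variant, transduced with the Puro-Blank Lentivirus, and a “WWOX” variant, transduced with a lentivirus carrying WWOX, the gene of a WW domain-containing oxidoreductase described as a tumor suppressor. All 8 groups were selected with puromycin and comprised 3 libraries each, which the study calls biological replicates. The WWOX construct was driven by the CMV promoter of a vector that also encodes GFP, so all “WWOX” libraries differ from “Vec” in vector as well as in WWOX. Each variant is a separately transduced and selected population of its line, hence the effect of WWOX and a difference that arose between the 2 populations cannot be told apart. Levels are shares of a library's tags, so fewer cells with a gene on and fewer transcripts per cell cannot be told apart either.

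Tag totals ranged from 10756072 to 16953689 with a median of 14584829, and 3 tags, taken as the limit of detection, equal 0.177 to 0.279 CPM. Counting error alone is covered by that limit. Of the glial and glioma markers, CD44, VIM, and EGFR had tags in all libraries of each line, whereas GFAP exceeded 100 CPM only in U251MG, SOX2 was at most 0.562 CPM in U87MG and T98G, and OLIG2 did not exceed 3.57 CPM in any library. The markers of other cells, PTPRC, PECAM1, EPCAM, CD3E, and ALB, did not exceed 0.914 CPM. WWOX tags rose in none of the lines by the test used here: in U87MG they were 40.1, 33.9, and 39.8 CPM in “Vec” and 66.0, 61.3, and 61.0 in “WWOX” (log2FC 0.66, adjusted p = 0.136). T98G had a log2FC of 0.38, U251MG of -0.01, and DBTRG-05MG of 0.39. All “WWOX” libraries lay above all “Vec” libraries in U87MG and DBTRG-05MG, whereas the groups overlapped in T98G and U251MG. A transcript started at a vector promoter need not give a tag in the WWOX gene, so this is a weak check of the labels. According to the paper, the transduction was verified at the protein level by Western blot. The library labelled U251MG “WWOX” replicate 2 stood apart: genes of that group had a median SD of 0.559 on the log2 scale against 0.258 to 0.361 in the other groups. The U251MG median of chromosome 18 and the members called in U87MG and U251MG are given with and without it. Other values that use the U251MG “WWOX” group include it.

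Chromosome 18 is best known in cancer for the q arm, whose distal part carries SMAD2 and SMAD4, transducers of TGF-β and BMP signals, the apoptosis regulators BCL2 and PMAIP1, and the cell adhesion and axon guidance receptor DCC. Tumor cell lines often carry gains or losses of whole chromosome arms or of segments, and genes in such a stretch tend to shift their RNA level together with its copy number. A median over neighboring genes is therefore a common way to read expression along a chromosome. Copy number was not measured in these libraries.

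Of the 253 members, 76 lie on the p arm and 177 on the q arm, with the border set at the widest gap between annotated genes, from 15330282 to 20944612. The members comprise 197 protein-coding genes, 46 long non-coding RNAs, and 10 others. As annotated, 115 overlap another gene on the same strand and 166 one on the opposite strand. Overlapping genes can share tags, and whether counting used the strand is not given in the sources used here. The most abundant members were SNHG22, a small nucleolar RNA host gene, with a mean of 702 CPM, MYL12A, a regulatory light chain of non-muscle myosin, with 442 CPM, and TXNL4A, a spliceosome protein, with 289 CPM. For the test, genes needed at least 5 CPM in at least 1 library, which left 12327 genes and 174 members, 58 on the p arm and 116 on the q arm. The other 79 members had means of 0.105 to 3.03 CPM and were described but not tested.

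The promoter sequences are shown for the members on which the U87MG comparison turns: the 4 with the greatest log2FC in either direction, and ZNF24 and RPRD1A, the neighbors between which the level of chromosome 18 genes stepped up in that line, picked after their values were seen. Each covers 250 bases before to 50 after the RefSeq start on GRCh38.p14, written 5′ to 3′ on the strand of the gene. Capitals mark the TATA box (TATAAA), the CCAAT box (CCAAT), and the GC box (GGGCGG), searched on both strands. In order, they lie at chr18:6929820-6930119 (minus strand), chr18:79964393-79964692 (plus), chr18:59697374-59697673 (minus), chr18:49561807-49562106 (plus), chr18:35344371-35344670 (minus), and chr18:36067510-36067809 (minus).
LINC00668: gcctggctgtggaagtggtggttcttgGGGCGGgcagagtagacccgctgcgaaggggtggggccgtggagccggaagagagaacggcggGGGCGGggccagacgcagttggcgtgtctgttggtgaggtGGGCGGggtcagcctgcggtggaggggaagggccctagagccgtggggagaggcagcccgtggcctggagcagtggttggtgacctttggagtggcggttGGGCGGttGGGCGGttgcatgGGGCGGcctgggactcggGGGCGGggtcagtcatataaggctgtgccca
HSBP1L1: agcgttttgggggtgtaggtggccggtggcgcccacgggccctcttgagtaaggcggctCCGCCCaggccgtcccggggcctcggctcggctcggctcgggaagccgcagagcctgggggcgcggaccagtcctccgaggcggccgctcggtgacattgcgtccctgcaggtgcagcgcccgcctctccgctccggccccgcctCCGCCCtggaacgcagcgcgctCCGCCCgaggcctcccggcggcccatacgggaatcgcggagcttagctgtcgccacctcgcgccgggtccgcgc
CCBE1: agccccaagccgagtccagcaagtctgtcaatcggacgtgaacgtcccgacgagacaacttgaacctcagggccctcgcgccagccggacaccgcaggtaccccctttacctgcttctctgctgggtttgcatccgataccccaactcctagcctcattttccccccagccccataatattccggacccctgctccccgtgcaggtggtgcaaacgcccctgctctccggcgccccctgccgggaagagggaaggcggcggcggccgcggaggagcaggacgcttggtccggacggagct
LIPG: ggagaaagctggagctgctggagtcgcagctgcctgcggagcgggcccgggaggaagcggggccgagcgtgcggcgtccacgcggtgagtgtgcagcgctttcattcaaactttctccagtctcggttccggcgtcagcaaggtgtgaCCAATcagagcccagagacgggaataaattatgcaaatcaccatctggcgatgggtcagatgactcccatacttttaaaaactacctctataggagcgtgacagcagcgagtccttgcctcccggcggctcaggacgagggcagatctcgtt
ZNF24: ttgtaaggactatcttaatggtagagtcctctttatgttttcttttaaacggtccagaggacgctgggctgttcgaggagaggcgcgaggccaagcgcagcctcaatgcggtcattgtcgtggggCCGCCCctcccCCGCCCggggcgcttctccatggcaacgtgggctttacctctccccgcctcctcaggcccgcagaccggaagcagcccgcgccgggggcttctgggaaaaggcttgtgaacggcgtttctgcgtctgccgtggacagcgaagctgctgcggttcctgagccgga
RPRD1A: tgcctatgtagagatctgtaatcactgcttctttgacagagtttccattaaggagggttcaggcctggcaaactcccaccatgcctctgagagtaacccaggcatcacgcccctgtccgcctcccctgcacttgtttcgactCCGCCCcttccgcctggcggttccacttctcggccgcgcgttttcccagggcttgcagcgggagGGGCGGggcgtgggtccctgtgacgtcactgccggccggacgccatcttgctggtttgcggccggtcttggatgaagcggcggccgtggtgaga
The promoters of LINC00668 and HSBP1L1, both without a tag in most U87MG “WWOX” libraries, held 7 and 3 GC boxes, whereas that of CCBE1, which fell as well, held none of the 3 motifs. LIPG, which rose, had 1 CCAAT box. On both sides of the step the neighbors had 2 GC boxes and 62.3% G and C. Among all 35116 promoters of the RefSeq table, 45.0% held a GC box, 34.6% a CCAAT box, and 11.5% a TATA box. The 106 promoters of tested members beyond the step held a GC box in 62.3% and those of the other tested members (135 promoters) in 60.7%, with a median G and C content of 65.3% and 66.3%. A CCAAT box was held by 35 and 31 of these promoters and a TATA box by 10 and 14, respectively. These letters describe the reference and not the cell lines, and which start sites the tags used was not analysed here. RefSeq promoters were found for 205 of the 253 members.

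The first comparison asked how chromosome 18 genes differed between “WWOX” and “Vec” within each line. In U87MG, the genes of the distal q arm were higher in “WWOX” as a block, whereas those of the p arm and of the q arm near the centromere were not. Taken over the 174 tested members and after subtracting the median of all genes, the U87MG log2FC had a median of 0.28, the highest of 23 chromosomes. T98G had 0.08 (rank 6), DBTRG-05MG had 0.17 (rank 2), and U251MG had -0.09 (rank 23). The U251MG value was 0.06 without “WWOX” replicate 2 and thus changed its sign. By arm, the U87MG medians were 0.00 for the p arm and 0.64 for the q arm. T98G had 0.03 and 0.09, U251MG -0.12 and -0.09 with “WWOX” replicate 2 included, and DBTRG-05MG 0.15 and 0.20. These medians are descriptions without a test, since chromosome 18 was picked with its level in U87MG known.

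**Figure D1:**
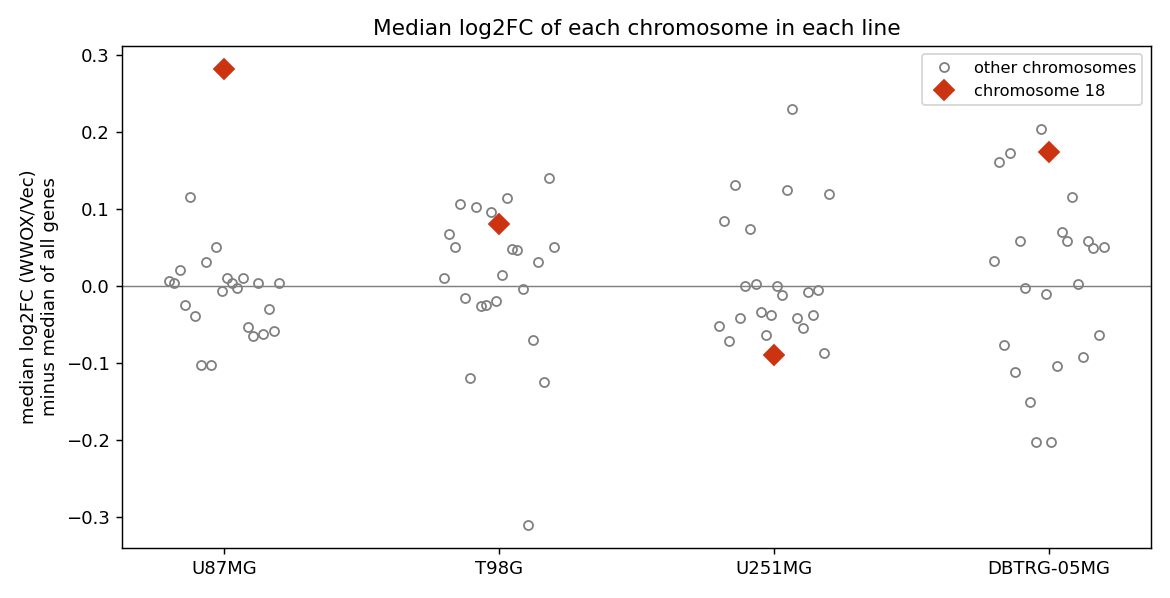
Median log2FC (“WWOX” over “Vec”) of the tested genes of each chromosome minus the median of all genes, with 1 point per chromosome in each line. Chromosome 18 (diamond) lies at 0.28 in U87MG, above the other 22 chromosomes, at 0.08 for T98G, at -0.09 for U251MG, and at 0.17 for DBTRG-05MG.

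Along the chromosome, the U87MG difference was read as a single step, and a gradual rise was not fitted. With the members in order of position, the single split that left the smallest sum of squares on either side (at least 10 members each) fell between ZNF24, which ends at 35345482, and RPRD1A, which starts at 35984387. Relative to all genes, the median was 0.00 over the 91 members before it and 0.80 over the 83 after it, where a difference of 0.80 equals a ratio of 1.74. The split explained 23.5% of the squares. In the other lines, the best single split explained 2.19% (T98G), 1.6% (U251MG), and 3.34% (DBTRG-05MG) and lay elsewhere. The same gene pair was found when each U87MG “WWOX” library was set against the “Vec” mean and when the “WWOX” mean was set against each “Vec” library, 6 of 6 times, although these comparisons share libraries. It was also found in the 5 fits with another scaling, pseudocount, or filter and in the 6 that left out a U87MG library. The 18 fits that left out a library of another line gave it too, but these hardly enter the U87MG log2FC. The step was located in these data and received no test.

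The interval of 0.639 Mb between the neighbors holds 3 members that were too low to test. ZNF396, a zinc finger gene, had 1.14, 0.695, and 0.281 CPM in U87MG “Vec” and 0.673, 0.814, and 0.932 CPM in “WWOX”, so that the groups overlapped. INO80C, a subunit of a chromatin remodeling complex, had 1.21, 0.773, and 1.33 CPM against 2.08, 1.49, and 1.95 CPM. GALNT1, a glycosyltransferase that starts mucin-type O-glycosylation, had 0.923, 0.695, and 1.19 CPM against 1.04, 1.15, and 1.36 CPM. Of these, only INO80C had its 3 “WWOX” libraries above the 3 “Vec” libraries, and at such levels the interval cannot be narrowed further. ZNF24, a zinc finger transcription factor on the near side, had 18.2, 19.6, and 24.5 CPM in “Vec” and 23.6, 16.2, and 19.8 CPM in “WWOX”. RPRD1A, which binds the tail of RNA polymerase II, had 11.9, 9.43, and 14.1 CPM in “Vec” and 35.7, 27.4, and 18.5 CPM in “WWOX”. The groups overlapped for ZNF24 and did not for RPRD1A, whose log2FC of 1.08 did not pass the threshold (adjusted p = 0.202). Without U251MG “WWOX” replicate 2, RPRD1A passed by limma (log2FC 1.06, adjusted p = 0.0403).

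**Figure D2:**
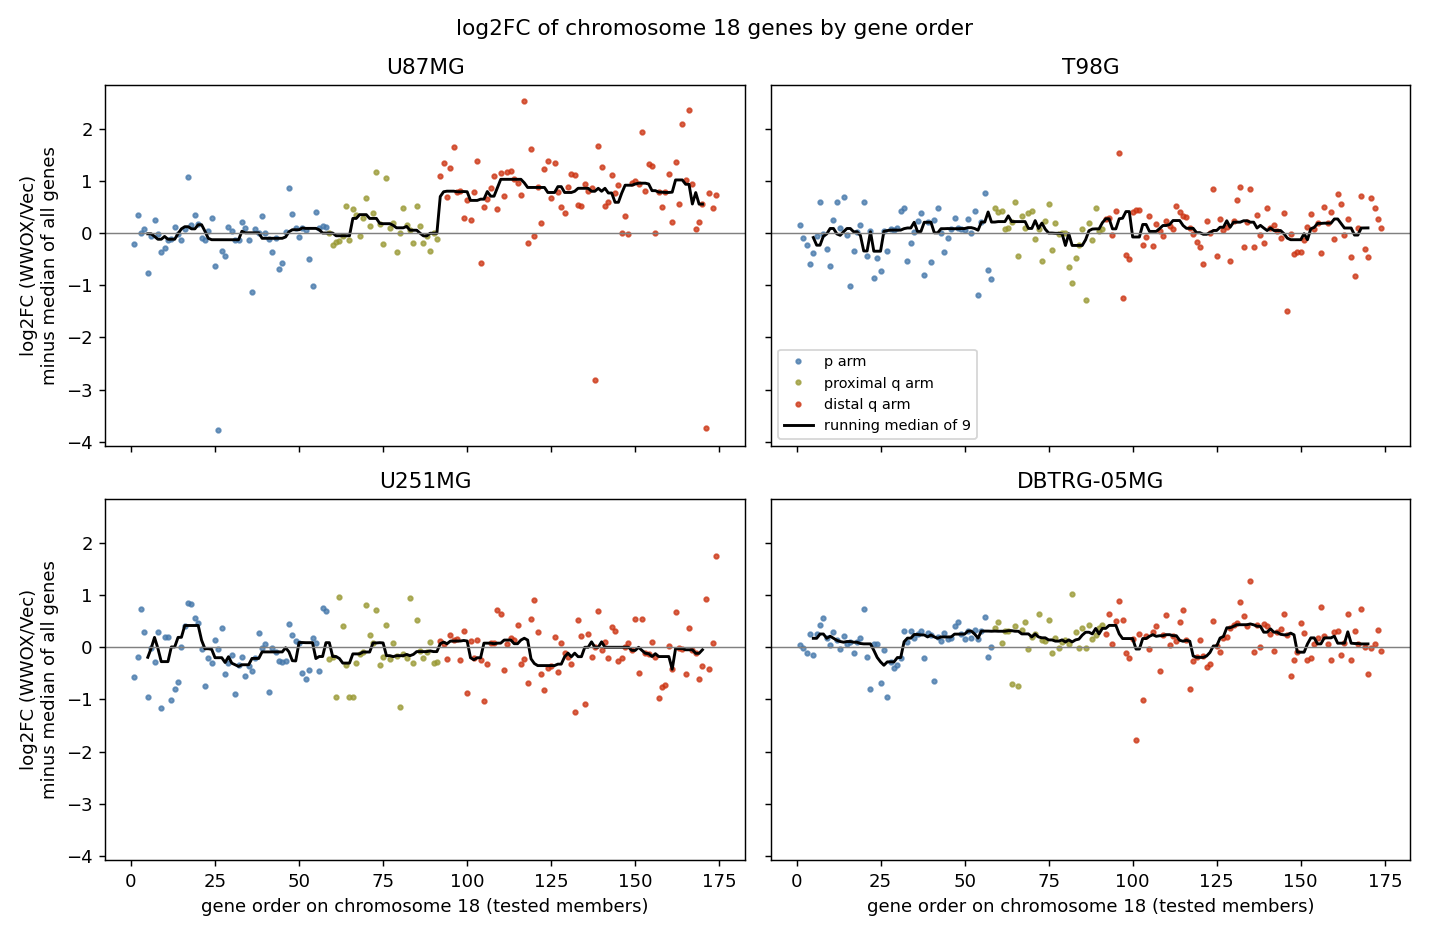
log2FC (“WWOX” over “Vec”) minus the median of all genes for the 174 tested members in order of their position, 1 panel per line, with colors for p arm, proximal q arm, and distal q arm and a running median of 9 genes as the line. In U87MG the running median lies near 0 up to the 91st gene and near 0.80 from the 92nd on, with CCBE1 and HSBP1L1 far below the others of the distal q arm and LINC00668 far below on the p arm; no such step is seen in the other panels.

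The split divides the q arm into a proximal part with 49 members (33 tested) and a distal part with 128 (83 tested). In U87MG, the level of the distal part relative to the “Vec” mean was 0.03, -0.14, and 0.09 in the “Vec” libraries and 1.07, 0.82, and 0.72 in the “WWOX” libraries. The lowest “WWOX” library thus lay well above the highest “Vec” library. The proximal part was at 0.07, -0.06, and 0.01 in “Vec” and 0.34, 0.08, and -0.02 in “WWOX”, and the groups overlapped. The p arm was at -0.01, 0.01, and 0.00 in “Vec” and 0.00, 0.00, and -0.10 in “WWOX”. As a share of all tags, the tested members of the distal part took 0.184%, 0.165%, and 0.201% in “Vec” and 0.408%, 0.366%, and 0.375% in “WWOX”. The members of the distal part that were not tested, 45 in number, did not enter these values. Their summed level in U87MG was 20.8 to 33.5 CPM in “Vec” and 42.5 to 45.3 CPM in “WWOX”, without overlap. This sum is a description only, since the mean that chose the members includes the U87MG “WWOX” libraries. LINC01912 and SERPINB4, for example, were at the limit of detection in the other lines. The untested p arm members summed to 8.88 to 11.8 CPM in “Vec” and 10.5 to 15.4 CPM in “WWOX”. The proximal ones summed to 6.34 to 7.31 and 6.94 to 10.5 CPM. In both parts the groups overlapped.

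A gene that is high only in U87MG “WWOX” may have passed the filter for that reason. With the filter applied to the libraries of the other 3 lines alone, 77 distal members remained, of which 73 lay above the median of all genes in U87MG. By windows of 10 Mb, the U87MG medians were -0.01, 0.02, 0.14, and 0.22 for the windows starting at 0, 10, 20, and 30 Mb. They were 0.80, 0.86, 0.92, and 0.78 for those starting at 40, 50, 60, and 70 Mb, with 13 to 21 genes in each. The last window, from 80 Mb, had 2 genes with a median of 0.61, and their median for the difference from the other lines was 0.20.

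In T98G, U251MG, and DBTRG-05MG, the distal part was at 0.10, -0.02, and 0.18 in the comparison of “WWOX” with “Vec”. DBTRG-05MG “WWOX” libraries were at 0.27, 0.17, and 0.10 against -0.03, 0.03, and 0.03 in “Vec”, and the p arm was higher to a like degree, with 0.18, 0.11, and 0.08 against 0.00, -0.02, and 0.01. The groups did not overlap in either part, but without “WWOX” replicate 1 the distal value was 0.08 and the p arm value 0.08. In U251MG, “WWOX” replicate 2 was at -0.30 in the distal part, -0.51 in the proximal part, and -0.41 on the p arm, below all other libraries of that line. The “Vec” libraries of T98G spread from -0.17 to 0.21 in the distal part and enclosed the 3 “WWOX” values. The difference between U87MG and the mean effect of the other lines had its median at 0.76 over the distal members (relative to all genes), with 77 of 83 above 0, and at -0.01 over the p arm. The best single split of that difference also fell between ZNF24 and RPRD1A. The difference contains the U87MG log2FC that set the step, so its split and its distal median are not a second observation.

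**Figure D3:**
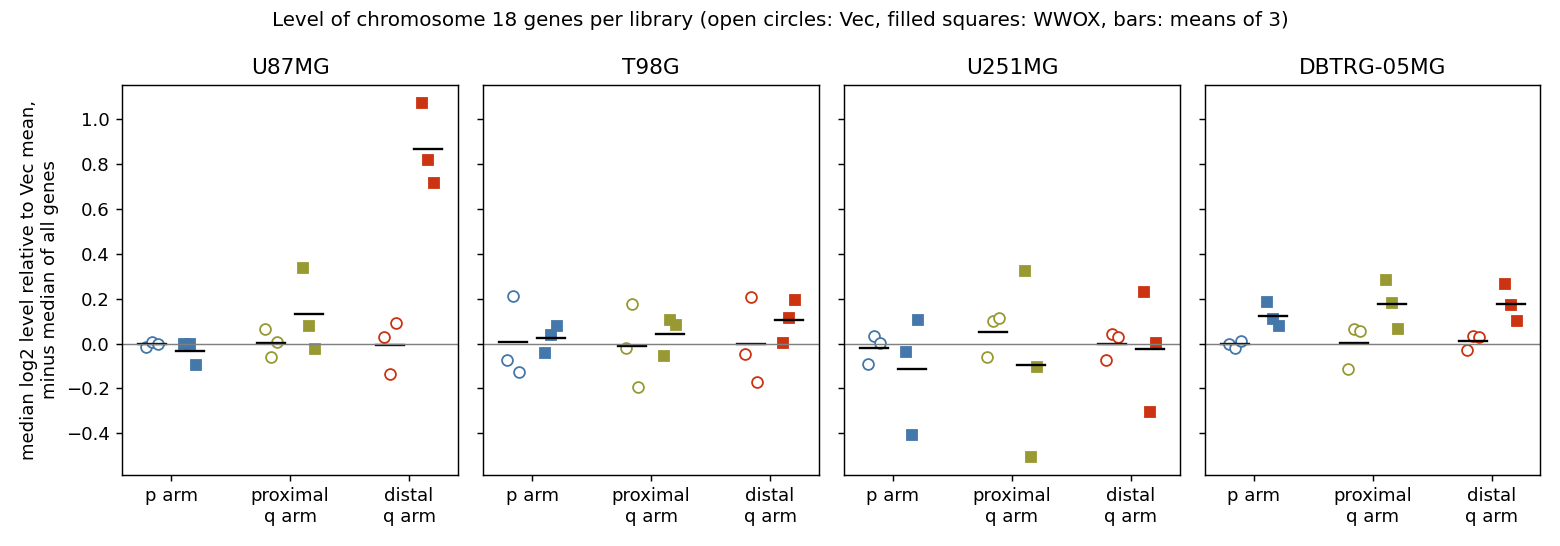
Median log2 level of the tested members of each part in each library, relative to the mean of the “Vec” libraries of the line and to all genes (open circles, “Vec”; filled squares, “WWOX”; bars, means of 3). The U87MG “WWOX” libraries lie between 0.72 and 1.07 in the distal q arm, above all U87MG “Vec” libraries; the U251MG “WWOX” squares at -0.30 to -0.51 are replicate 2.

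Gene by gene, differences were tested with limma on log2(scaled CPM + 0.5) and called at a Benjamini-Hochberg adjusted p under 0.05. In U87MG, 20 of the 174 tested members passed. Higher in “WWOX” were 16 (9.2%, against 1.54% of all genes tested) and lower were 4 (2.3%, against 1.66%). All 3 “WWOX” libraries lay above all 3 “Vec” libraries in 57 members (against 7.76% of all genes) and below them in 9 (against 9.69%). Of the distal part, 14 members were higher and 2 lower by the test, and 50 were higher and 2 lower by libraries without overlap. On the p arm, DLGAP1 alone was called higher and LINC00668 and RAB31 lower, and in the proximal part ZNF521 alone was called higher. The 16 higher members were LIPG, MBP, ZNF516-AS1, CCDC102B, PMAIP1, SIGLEC15, MEX3C, CTIF, SMAD2, ZNF407-AS1, KDSR, HMSD, ATP9B, and MBD1 of the distal part together with DLGAP1 and ZNF521. Without U251MG “WWOX” replicate 2, whose group enters the estimate of spread shared by all lines, 32 members were called in U87MG, 28 higher and 4 lower, against 4% of all genes, and 26 of the 28 were distal.

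LIPG, which encodes endothelial lipase, a phospholipase acting on lipoproteins, had the greatest log2FC of the members in U87MG, although the ratio of mean CPM was higher for MBP and CCDC102B (48.5 and 6.8, against 6.5 for LIPG). LIPG had 2.98, 1.00, and 0.491 CPM in “Vec” and 9.79, 10.5, and 8.81 CPM in “WWOX” (log2FC 2.52 ± 0.39 SE, adjusted p = 2.00e-04). MBP, the gene of myelin basic protein, had 0.00, 0.0773, and 0.0701 CPM in “Vec” and 3.24, 2.71, and 1.19 CPM in “WWOX”. With at most 1 tag in a “Vec” library, below the limit of 3 tags, MBP was at least 10.9-fold higher in “WWOX” (adjusted p = 2.32e-04). That bound sets the “WWOX” mean against the limit. It was 8.93 without “WWOX” replicate 1, and “WWOX” replicate 3 had 14 tags. CCDC102B, which encodes a centrosomal coiled-coil protein, went from 0.497, 0.309, and 0.631 CPM to 3.67, 3.39, and 2.71 CPM (log2FC 1.94 ± 0.33). For each of these 3 genes the “WWOX” libraries stood above the “Vec” libraries, although their levels were low.

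PMAIP1 encodes Noxa, a BCL2 family protein that promotes apoptosis. It had 38.8, 9.89, and 16.3 CPM in “Vec” and 91.8, 42.5, and 61.7 CPM in “WWOX” (log2FC 1.67 ± 0.38, adjusted p = 0.0116). The highest “Vec” library came close to the lowest “WWOX” library. ZNF516-AS1, a long non-coding RNA antisense to a zinc finger gene, rose from 3.83, 1.00, and 0.631 CPM to 9.67, 7.40, and 7.03 CPM, with a log2FC of 2.08 ± 0.56 and an adjusted p of 0.0394 that is close to the threshold. Being antisense, it may share tags with its partner.

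Falls were few but steep. LINC00668, a long non-coding RNA of the p arm, had 13.9, 5.56, and 5.54 CPM in “Vec” and 0.551, 0.00, and 0.00 CPM in “WWOX” (log2FC -3.77 ± 0.30, adjusted p = 9.22e-09). HSBP1L1, which overlaps TXNL4A on the opposite strand and encodes a small protein resembling a binding partner of heat shock factor, lies on the distal q arm among genes that were higher. It had 9.16, 6.18, and 9.54 CPM in “Vec” and 0.857, 0.00, and 0.00 CPM in “WWOX” (log2FC -3.75 ± 0.32, adjusted p = 3.67e-08). CCBE1, an extracellular protein needed for lymphatic growth, is distal as well, with 9.52, 7.57, and 12.6 CPM against 2.203, 0.814, and 0.508 CPM (log2FC -2.82 ± 0.24, adjusted p = 3.67e-08). In each of the 3, “WWOX” replicate 1 was the highest of its group and still below every “Vec” library. RAB31, a small GTPase of endosomal traffic on the p arm, had 82.9, 87.4, and 97.99 CPM against 44.2, 46.4, and 36.5 CPM (log2FC -1.14 ± 0.27).

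Among the distal members, 6 of 83 did not lie above the median of all genes in U87MG, namely HSBP1L1, CCBE1, PSTPIP2, ACAA2, MYO5B, and SERPINB2, picked after their values were seen. PSTPIP2, a cytoskeletal adaptor, had a log2FC of -0.59 (adjusted p = 0.275) at under 1 CPM, and MYO5B, a vesicle motor gene opposite SNHG22, had at most 1 tag in any U87MG library. ACAA2, an enzyme of mitochondrial fatty acid oxidation, was well expressed with 18.4, 21.7, and 23.6 CPM in “Vec” and 19.8, 18.1, and 20.2 CPM in “WWOX” (log2FC -0.19). SERPINB2, a plasminogen activator inhibitor, had 13.2, 5.72, and 36.5 CPM against 28.1, 17.6, and 6.01 CPM, with a spread between libraries that exceeded any difference.

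**Figure D4:**
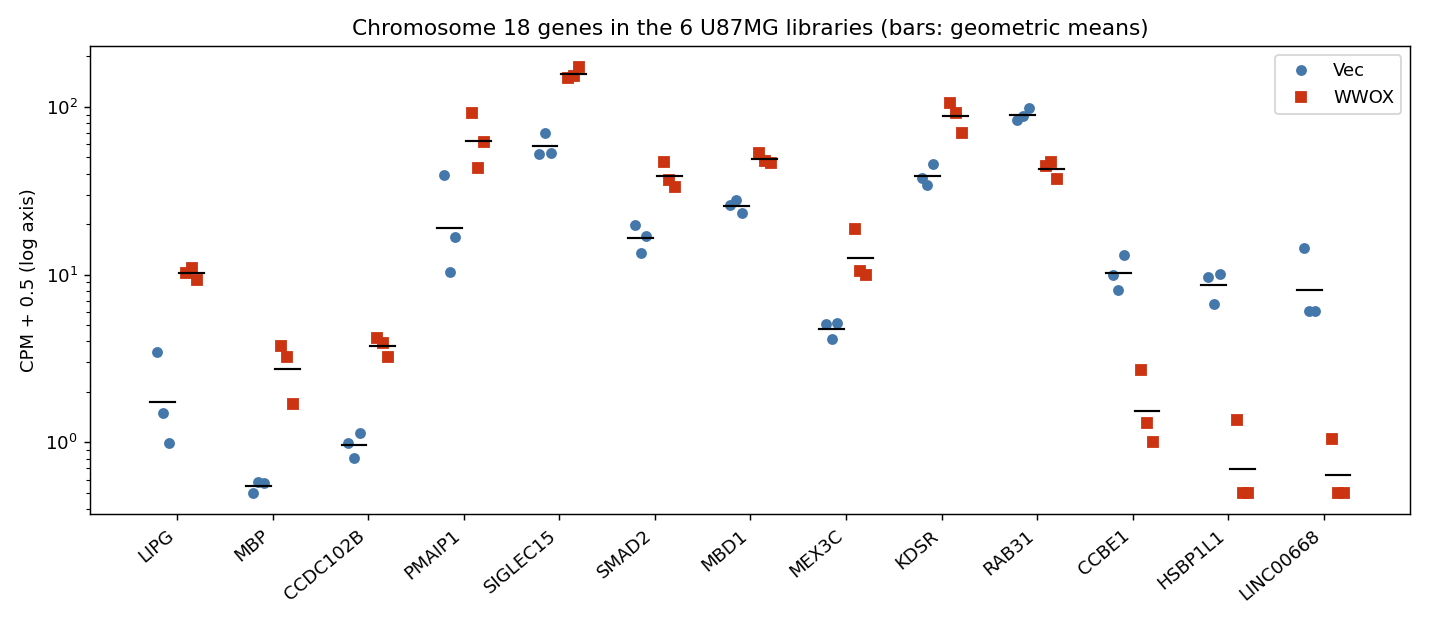
CPM plus 0.5 on a log axis in the 6 U87MG libraries for 13 members (circles, “Vec”; squares, “WWOX”; bars, geometric means of 3). The first 9 genes are distal q arm members with all squares above all circles; in RAB31, CCBE1, HSBP1L1, and LINC00668 all squares are below, with LINC00668 and HSBP1L1 at 0 in 2 of the 3 “WWOX” libraries.

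By function, the higher members spread over unrelated roles. The gene lists used here were drawn up by role from the members of chromosome 18 with earlier results of these data known, and they are described by counts alone. Their counts refer to the fit with all libraries unless stated. Of the TGF-β and BMP list, 5 of 6 genes were tested and 1 was higher in U87MG. SMAD2 had 19.2, 13.1, and 16.6 CPM in “Vec” and 46.5, 36.1, and 32.9 CPM in “WWOX” (log2FC 1.16 ± 0.24, adjusted p = 0.00542). Its partner SMAD4 had 11.4, 12.4, and 13.3 CPM against 26.7, 19.6, and 16.5 CPM, without overlap but short of the threshold (log2FC 0.66, adjusted p = 0.538). On the p arm, TGIF1, a repressor of SMAD-driven transcription, and TWSG1, a BMP-binding secreted protein, had log2FC values of -0.13 and 0.21. LDLRAD4, an inhibitor of TGF-β signaling, was under 1 CPM in all U87MG libraries (log2FC -1.02, adjusted p = 0.369). The median of the list relative to all genes was 0.21.

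Of the mitochondria and metabolism list, 13 of 14 genes were tested, and 2 were higher, LIPG and KDSR. KDSR, a reductase of sphingolipid synthesis, had 37.4, 33.6, and 45.4 CPM in “Vec” and 104.9, 92.2, and 69.7 CPM in “WWOX” (log2FC 1.12 ± 0.21, adjusted p = 0.00168). Other distal enzymes did not pass with all libraries: ME2, a mitochondrial malic enzyme, had a log2FC of 1.37 (adjusted p = 0.0657) and FECH, the last enzyme of heme synthesis, 1.12 (adjusted p = 0.0705), both with all “WWOX” libraries above “Vec”. Without U251MG “WWOX” replicate 2, ME2 and FECH passed by limma (adjusted p = 0.0286 and 0.0244). ATP5F1A, the alpha subunit of ATP synthase, had 137, 147, and 186 CPM in “Vec” and 252, 237, and 204 CPM in “WWOX” (log2FC 0.50). The p arm genes NDUFV2, of respiratory complex I, and AFG3L2, a mitochondrial protease, had log2FC values of -0.13 and 0.02. The median of the list relative to all genes was 0.51, with 9 of 13 above that of all genes.

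Of the vesicle traffic and protein handling list, 18 of 20 genes were tested, 1 was higher and 1 lower in U87MG, and the median was 0.57. ATP9B, a P-type ATPase of the flippase family at the Golgi, was the higher one with 3.62, 3.94, and 6.80 CPM against 11.4, 8.21, and 9.40 CPM (log2FC 0.93 ± 0.23, adjusted p = 0.0238), and RAB31 was the lower one. Distal members of the list that did not pass with all libraries included VPS4B, an ATPase of the ESCRT machinery, with a log2FC of 0.91 and PIGN, an enzyme of GPI anchor synthesis, with 1.25. Without U251MG “WWOX” replicate 2, VPS4B and PIGN passed by limma (adjusted p = 0.0345 and 0.0072). The p arm member VAPA, a contact-site protein of the endoplasmic reticulum, had 0.07. Of the transcription and chromatin list, 11 of 17 members were tested and 2 were higher, and all 11 lay above the median of all genes. MBD1, a methyl-CpG-binding repressor, had 25.6, 27.3, and 22.8 CPM in “Vec” and 52.6, 47.0, and 45.6 CPM in “WWOX” (log2FC 0.87 ± 0.20, adjusted p = 0.0158). ZNF521, a zinc finger factor in the proximal part, had 3.98, 2.94, and 3.65 CPM against 11.6, 6.99, and 6.44 CPM (log2FC 1.05 ± 0.23, adjusted p = 0.00883).

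Of the DNA synthesis, mitosis, and chromosome structure list, all 13 genes were tested. With all libraries no gene of the list was called in any line, whereas CTDP1 was lower in U251MG without “WWOX” replicate 2 (log2FC -1.04, adjusted p = 0.0361). TYMS, thymidylate synthase on the p arm, had 40.3, 185, and 152 CPM in “Vec” and 37.3, 83.9, and 81.6 CPM in “WWOX”, so that replicate 1 was low in both groups. NDC80, of the kinetochore, showed the same pattern with 4.33, 21.3, and 15.6 CPM in “Vec” and 5.69, 11.6, and 11.2 CPM in “WWOX”. Of the cell death and survival list, 11 of 14 genes were tested and PMAIP1 alone was higher with all libraries. Without U251MG “WWOX” replicate 2, SOCS6 passed in U87MG as well by limma (log2FC 1.3, adjusted p = 0.0292). Of the adhesion and cytoskeleton list, 12 of 16 members were tested. DLGAP1, a scaffold of postsynaptic densities, was higher, with 6.68, 4.17, and 3.37 CPM against 10.8, 9.71, and 11.1 CPM (log2FC 1.07 ± 0.28, adjusted p = 0.0304), and CCBE1 was lower. Of the neural and glial list, 5 of 14 genes were members, and MBP was the one tested.

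In the other lines, few members passed. T98G had 0 higher (0.324% of all genes) and 3 lower (1.72% of members, against 0.811%). By libraries without overlap, 13 members were higher (against 6.90%) and 21 lower (against 9.26%). At an unadjusted p under 0.05 there were 22 members (12.6%, against 11.5% of all genes), a share near the background, and limma-voom called 1. SERPINB5, the gene of maspin, a serpin without protease inhibition, had 1.26, 2.38, and 0.156 CPM in “Vec” and 0.00, 0.0742, and 0.00 CPM in “WWOX”, at least 5.43-fold lower (adjusted p = 0.0147). That bound was 3.05 without “Vec” replicate 2, and “Vec” replicate 3 had 2 tags, itself below the limit of 3. FHOD3, a formin that assembles actin filaments, had 1.69, 1.57, and 1.09 CPM against 0.372, 0.297, and 0.264 CPM (log2FC -1.29 ± 0.27, adjusted p = 0.0152). HNRNPA1P7, annotated as a processed pseudogene and therefore possibly sharing reads with its parent, had 8.37, 5.45, and 7.55 CPM against 1.49, 3.71, and 2.77 CPM (log2FC -1.34 ± 0.33, adjusted p = 0.0453). This narrow call was lost in 18 fits that left out 1 library and kept in 6. Under the other alternatives it was lost in 7 and kept in 2. The number of members called in T98G was 0 without “Vec” replicate 1 or without “WWOX” replicate 3, and 7 without “Vec” replicate 2. Shares of all genes called were not taken for these fits or for limma-voom.

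In U251MG, 0 members were higher (against 0.114%) and 1 was lower (against 0.203%), with 29 at an unadjusted p under 0.05 (16.7%, against 11.5%). Without overlap, 12 were higher (against 5.41%) and 15 lower (against 5.01%). ATP5F1A had 150, 213, and 184 CPM in “Vec” and 81.8, 70.8, and 120 CPM in “WWOX” (log2FC -1.04 ± 0.20, adjusted p = 0.0227). This call was lost without “Vec” replicate 2 (adjusted p = 0.104), “Vec” replicate 3 (0.171), or “WWOX” replicate 1 (0.0876), and with edgeR (0.0544), CPM without TMM (0.0686), a replicate block (0.116), or a model of U251MG alone (0.998). Without “WWOX” replicate 2, 8 members passed, 2 higher and 6 lower, against 4.53% of all genes. The higher ones were then MYO5B (log2FC 1.11) and C18orf32 (1.01). The lower ones were SNRPD1, a core protein of spliceosomal particles (-1.29), MYL12A (-1.27), ATP5F1A (-1.11), CTDP1, a phosphatase of the RNA polymerase II tail (-1.04), CNDP2, a cytosolic dipeptidase (-0.98), and NDUFV2 (-0.96). These 8 were found on the p arm and on both parts of the q arm.

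In DBTRG-05MG, 0 members were higher (against 0.519%) and 1 was lower (against 0.503%), with 11 at an unadjusted p under 0.05 (6.32%, against 7.63%, thus below the background) and 0 called by limma-voom. Without overlap, 27 were higher (against 9.41%) and 11 lower (against 10.4%). SLC14A1, a urea transporter, had 13.8, 5.28, and 19.9 CPM in “Vec” and 2.24, 4.28, and 3.08 CPM in “WWOX” (log2FC -1.77 ± 0.38, adjusted p = 0.0164). The number called ranged from 0 to 2 when single libraries were left out: it was 0 without “Vec” replicate 1 or 3 or “WWOX” replicate 1 or 3, and 2 without “Vec” replicate 2. For these fits and limma-voom, the share of all genes called was not taken.

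The second comparison asked which members responded differently in U87MG than in the other lines, by testing the difference between the U87MG log2FC and the mean log2FC of the other 3. The test called 10 members higher (5.75%, against 1.16% of all genes) and 3 lower (1.72%, against 1.23%), and 9 of the 10 and 2 of the 3 were distal. The differences were 2.85 ± 0.45 for LIPG (SE, adjusted p = 3.29e-04), 2.41 ± 0.42 for MBP, 1.82 ± 0.39 for CCDC102B, 1.76 ± 0.39 for SIGLEC15, 1.23 ± 0.30 for MEX3C, and 1.14 ± 0.30 for HMSD. ZNF521 (1.06), SMAD2 (1.05), MBD1 (1.04), and CNDP2 (0.98) completed the 10. The differences were -4.26 ± 0.37 for HSBP1L1 (adjusted p = 6.65e-08), -3.74 ± 0.34 for LINC00668, and -2.79 ± 0.28 for CCBE1. With edgeR on recovered tag counts, 5 members were called and the differences of LIPG (adjusted p = 0.113), LINC00668, and CCBE1 (both adjusted p = 1) were not, the latter 2 having hardly a tag in the other lines.

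SIGLEC15, a sialic acid-binding lectin, had 52.1, 69.9, and 52.8 CPM in U87MG “Vec” and 149, 152, and 172 CPM in “WWOX”. It did not exceed 1.25 CPM in any library of the other lines, so that its difference rests on a gene hardly expressed there. MEX3C, an RNA-binding ubiquitin ligase, was expressed in all lines. It had 4.62, 3.63, and 4.63 CPM in U87MG “Vec” and 18.3, 9.98, and 9.40 CPM in “WWOX”, whereas T98G had a log2FC of 0.22, U251MG of 0.20, and DBTRG-05MG of -0.10. HMSD, which overlaps SERPINB8 on the same strand and may share its tags, had 3.76, 1.78, and 3.44 CPM against 8.75, 6.58, and 4.15 CPM in U87MG and was at 8.62 to 14.6 CPM in DBTRG-05MG.

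HSBP1L1 had the greatest difference among the members. T98G had 85.4, 83.1, and 70.8 CPM in “Vec” and 103.9, 134, and 132 CPM in “WWOX”, so that the gene was abundant and all “WWOX” libraries were above “Vec”, though not past the threshold (log2FC 0.62, adjusted p = 0.478). DBTRG-05MG had 59.1, 54.5, and 41.4 CPM against 54.0, 48.2, and 57.1 CPM. U251MG had 1.22, 0.637, and 1.00 CPM against 3.50, 1.86, and 1.76 CPM. In U87MG alone the “WWOX” libraries were below “Vec”. LINC00668 and CCBE1 did not exceed 0.162 CPM in any library of the other 3 lines, under 3 tags, so their fall could be seen in U87MG only. LIPG was expressed in U251MG at 7.70, 4.30, and 11.4 CPM in “Vec” and 6.17, 4.36, and 8.93 CPM in “WWOX”, where the groups overlapped.

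The third comparison set the “Vec” level of each line against the mean “Vec” level of the other lines. It asks how the lines differed on chromosome 18 without added WWOX. Differences between lines were frequent across the genome. According to the paper, the culture medium was MEM for T98G, EMEM for U87MG and U251MG, and RPMI for DBTRG-05MG. For T98G and DBTRG-05MG, line and medium therefore cannot be told apart. U87MG and U251MG shared a medium, but each was also set against lines grown in other media, so medium may enter their differences too. In U87MG, 40 members were higher (against 19.8% of all genes) and 50 lower (against 25.2%). T98G had 32 higher (against 20.1%) and 54 lower (against 20.4%), U251MG 33 (against 16.5%) and 37 (against 18.4%), and DBTRG-05MG 49 (against 22.8%) and 26 (against 19.8%). Relative to the mean of the 4 lines and to all genes, the median “Vec” level of the members was -0.06 for U87MG, -0.18 for T98G, -0.02 for U251MG, and 0.10 for DBTRG-05MG.

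These values varied along the chromosome. The best single split of the U87MG “Vec” difference lay between ST8SIA5 and PIAS2, farther along the q arm than the step, and explained 5.11% of the squares. In the other lines it explained 3.9 to 7.51%. In U87MG “Vec”, the distal part was below the other lines with a median of -0.48, and 36 of its 83 members were called lower against 13 higher, whereas the proximal part was above them with 0.38. In U87MG “WWOX”, set against the “WWOX” libraries of the other lines, the distal part was at 0.48 with 58 of 83 members above, and the proximal part at 0.19. Thus the distal part lay below the other lines in “Vec” and above them in “WWOX”, while the parts before the step stayed on the same side. T98G had a low p arm in both variants, with -0.65 in “Vec” and -0.47 in “WWOX”, and 26 of 58 p arm members called lower in “Vec”. U251MG had its p arm at 0.38 in “Vec” and 0.10 in “WWOX”, and DBTRG-05MG its distal part at 0.33 in “Vec” and 0.20 in “WWOX”. The U251MG distal part was at -0.15 in “Vec” and -0.67 in “WWOX”, where U87MG “WWOX” is part of the comparison and U251MG “WWOX” replicate 2 was the lowest library.

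**Figure D5:**
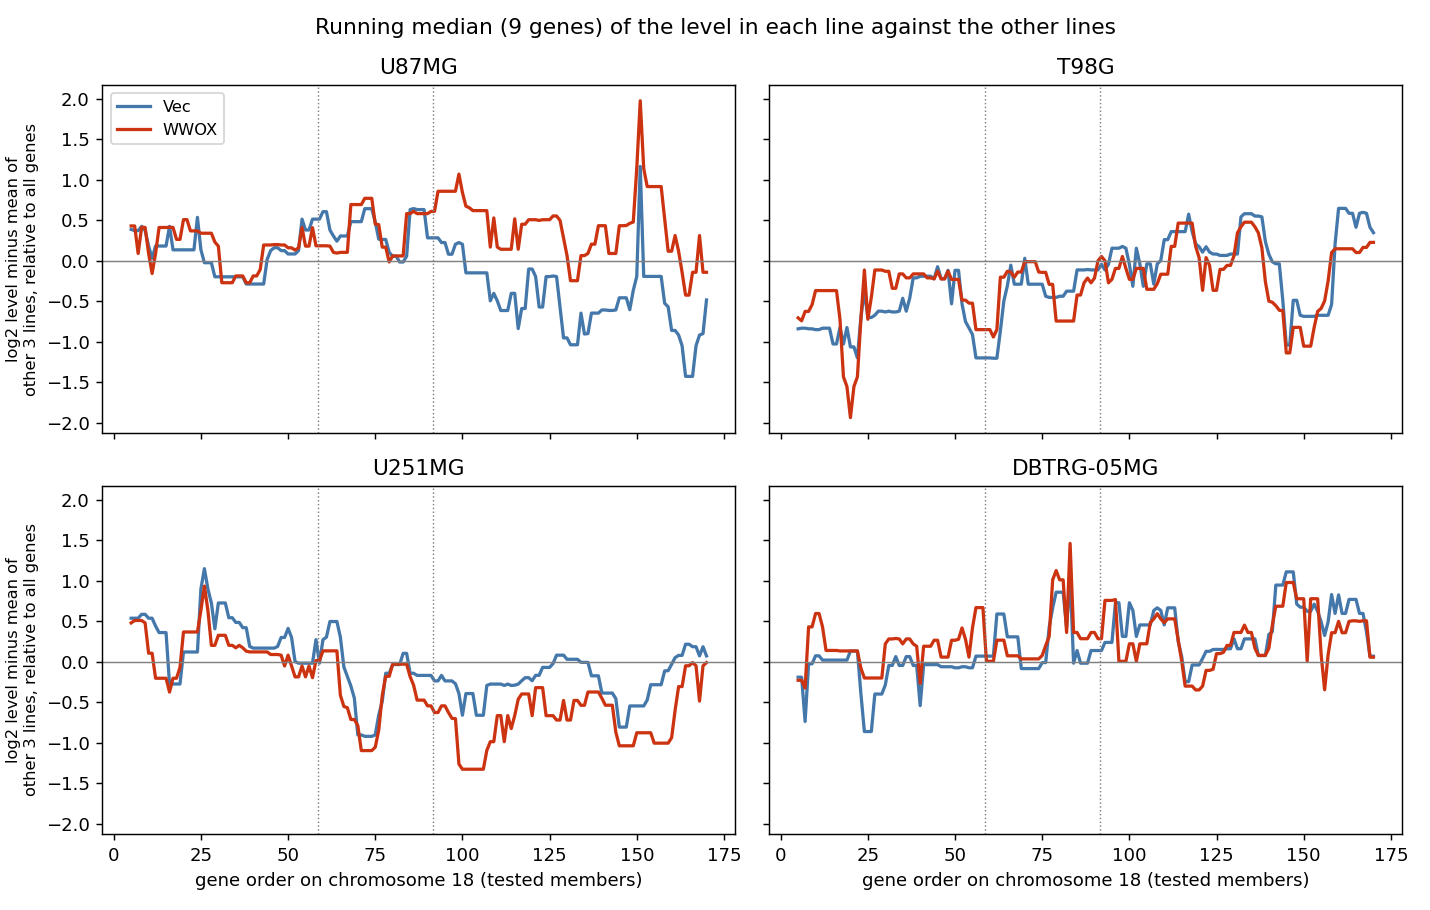
Running median of 9 genes of the log2 level in each line minus the mean of the other 3 lines, relative to all genes, along the 174 tested members (blue, “Vec”; red, “WWOX”; dotted lines, the arm border and the step). In U87MG the curves run together up to the step and part beyond it, with segment medians of -0.48 in “Vec” and 0.48 in “WWOX”; in T98G both curves are below 0 over most of the p arm.

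Individual members marked single lines. In U87MG “Vec”, the long non-coding RNA GAPLINC had 52.1, 51.0, and 65.4 CPM and did not exceed 2.18 CPM in the other lines, and LINC01444, another one of the p arm, had 183, 126, and 230 CPM against at most 12.2 CPM in “Vec” of the other lines. SIGLEC15 was the third such gene. CABLES1, a cyclin-dependent kinase partner, had 0.00, 0.0773, and 0.00 CPM in U87MG and 7.86 to 22.2 CPM in the other lines. T98G was marked by SLC14A1 with 130, 41.7, and 67.1 CPM, by HSBP1L1, and by COLEC12, a scavenger receptor, with 7.52, 16.4, and 3.81 CPM against at most 0.405 CPM elsewhere. T98G was low in DSG2, a desmosomal cadherin, with 0.633, 1.00, and 0.467 CPM against 11.3 to 22.99 CPM in the others, and in DTNA, which encodes dystrobrevin alpha of the dystrophin complex, with 2.25, 1.69, and 1.40 CPM. GATA6-AS1 had at most 0.141 CPM in T98G.

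U251MG was marked by EPB41L3, a membrane-cytoskeleton linker, with 39.97, 75.4, and 44.2 CPM against at most 1.11 CPM in the other lines, by MYO5B with 5.68, 6.53, and 4.76 CPM, and by LIPG. It was low in HSBP1L1, SIGLEC15, and PTPRM, a receptor tyrosine phosphatase, which had 0.487, 0.239, and 0.00 CPM against 2.32 to 19.3 CPM in the others. SIGLEC15 was hardly expressed in T98G and DBTRG-05MG as well, so its difference here rests on its high level in U87MG. DBTRG-05MG was marked by SERPINB5 with 338, 281, and 403 CPM, a log2 difference of 8.67 ± 0.26 (SE, adjusted p = 4.59e-17), against at most 2.38 CPM elsewhere. LINC02582, a long non-coding RNA of the distal part, had 20.1, 28.7, and 29.6 CPM there and at most 0.313 CPM in the others, and MBP had 31.7, 34.8, and 32.9 CPM. Low in DBTRG-05MG were LINC01444, ZNF521 with at most 0.0659 CPM, and ENOSF1, which is antisense to TYMS and had 0 tags in all 3 libraries. ENOSF1 was also at or under the limit of detection in both variants of U251MG, so its low level was not particular to DBTRG-05MG.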

How the data were processed

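CAGE-Seq libraries of 4 glioblastoma lines in “Vec” and “WWOX” variants (3 biological replicates each) were made by the authors from total RNA. According to the deposited tables, the authors expressed tags per gene as CPM. The submitters' processing notes name STAR, SAMtools, limma 3.42, and hg38; the annotation release and the strandedness of counting are not given in the sources used here. Table columns were assigned to samples by the labels. All CPM values were whole multiples of 1 tag (100% within a tolerance of 0.001), so tag counts and depth (10756072 to 16953689) were recovered, and 3 tags were taken as the limit of detection. Genes were placed on hg38 by GENCODE 44 (43033 of 43037 identifiers).

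The 12327 genes that reached 5 CPM in 1 library or more were scaled by TMM, transformed as log2(scaled CPM + 0.5), and fitted with limma 3.58.1 (R 4.3.3) over the 8 groups with a shared spread (16 residual degrees of freedom) and without a replicate block. Benjamini-Hochberg adjustment covered all 12327 genes. A log2FC on this scale understates changes of low genes. Levels of chromosome 18 are medians of log2FC over members minus the median of all genes and were given no test. Promoter letters came from RefSeq (GRCh38.p14). Alternatives were pseudocounts of 0.1 and 1, no filter, CPM without TMM, a replicate block, edgeR 4.0.16 and limma-voom on recovered tags, a model per line, and each library left out. Scripts were tested on simulated data. Tables were handled in Python 3.11.15 with pandas 2.3.3 and numpy 2.4.6, and plots drawn with matplotlib 3.10.9.

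The members, gene lists, and tests were chosen with earlier results of these data known, and the bounds of the distal q arm were set after its values were seen. The genes named were, per line, up to 5 rises and 5 falls past the threshold without overlap of libraries, up to 6 each way for the difference of U87MG from the other lines, up to 3 highest and lowest per line in “Vec”, list members, the 3 most abundant members, and those at the CPM limit. Others, the neighbors of the step among them, were named after their values were seen. The deviations of same-numbered “Vec” and “WWOX” libraries correlated with r from -0.546 to 0.51, positive for some numbers (replicates 1 and 2 of U87MG and T98G) and negative for others, so the numbers were not taken as pairs.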

Additional observations from a re-analysis of the deposited data

Results flagged for a closer look

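For 13 members, of which the 9 with the greatest differences are given here (6 higher, 3 lower), the U87MG difference between “WWOX” and “Vec” was itself different from the mean of the other 3 lines by the limma test of that difference (Benjamini-Hochberg adjusted over all genes tested). The size of the difference was 2.85 for LIPG, 2.41 for MBP, 1.82 for CCDC102B, 1.76 for SIGLEC15, 1.23 for MEX3C, and 1.14 for HMSD on the log2 scale, all higher in U87MG. It was -4.26 for HSBP1L1, -3.74 for LINC00668, and -2.79 for CCBE1. LINC00668 and CCBE1 were at or under the limit of 3 tags in the other lines. SIGLEC15 was hardly expressed there. The differences of these genes thus restate their change in U87MG and do not show another response elsewhere. With edgeR, the differences of LIPG, LINC00668, and CCBE1 were not called. LIPG, MBP, CCDC102B, SIGLEC15, MEX3C, HMSD, HSBP1L1, and CCBE1 lie beyond the step on the distal q arm, and LINC00668 lies on the p arm. HMSD passed narrowly, and its call was lost in 19 of the 24 fits that left out 1 library.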

How the results depend on the processing

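In U87MG, the distal q arm stayed between 0.712 and 0.862 under the other settings and between 0.739 and 0.922 with single libraries left out. The count of members called in U87MG was 14 to 25 over the other settings (20 as reported), and 11 to 32 with libraries left out. It was 11 without “Vec” replicate 2 or “WWOX” replicate 1, and 13 without “Vec” replicate 3. Without U251MG “WWOX” replicate 2 it was 32 (against 4% of all genes). The cause of these changes was not tested. Apart from that last fit, the share of all genes called was not taken under the alternatives, here or in the other comparisons. Those counts alone do not tell a change on chromosome 18 from one across the genome.

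The small counts of the other lines depended on the settings (T98G 3, U251MG 1, DBTRG-05MG 1 as reported). A pseudocount of 0.1 gave 5 in T98G and 0 in DBTRG-05MG, and one of 1 gave 2 in DBTRG-05MG. Without a filter there were 2 in U251MG and 5 in DBTRG-05MG, the U87MG q arm level was 0.455, and the DBTRG-05MG p arm level was 0.109. CPM without TMM gave 0 in U251MG and 2 in DBTRG-05MG. The edgeR test gave 0 in U251MG and in DBTRG-05MG and 5 for the difference between U87MG and the other lines (13 as reported). Limma-voom gave 1 in T98G and 0 in DBTRG-05MG. Separate models per line gave 0 in T98G, U251MG, and DBTRG-05MG.

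With a replicate block there was 1 call in T98G, 0 in U251MG, 0 in DBTRG-05MG, and 8 for the difference. The numbers were not taken as pairs, since the correlations differed in sign (r from -0.546 to 0.51).

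With single libraries left out, counts were 0 to 7 in T98G, 0 to 8 in U251MG, 0 to 2 in DBTRG-05MG, and 8 to 16 for the difference. In U251MG, the count was 0 without “Vec” replicate 2, “Vec” replicate 3, or “WWOX” replicate 1, and 3 without “WWOX” replicate 3. Levels of chromosome 18 were 0.217 to 0.409 in U87MG and 0.087 to 0.205 in DBTRG-05MG. The p arm was at -0.039 to 0.023 in U87MG and 0.084 to 0.154 in DBTRG-05MG. For DBTRG-05MG, the q arm was at 0.093 to 0.259 and the distal part at 0.076 to 0.243, with the lowest values without “WWOX” replicate 1. The “Vec” level of U87MG against the other lines was -0.058 to -0.007. Of 1514 values of named genes under these alternatives, 108 lost the threshold and 0 reversed. Members at a few tags per library cannot be resolved at this depth.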
